A study of Homo sapiens with 8 samples.

Results

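The genes of heparan sulfate synthesis, its core proteins and its extracellular editing were described across 8 RNA-seq libraries of limb-directed human cells. They are 38 genes chosen by name, for their known place in the pathway, from 61209 gene names in the count table. Earlier results of these data were known when the genes were chosen. The cells were H1, an established human embryonic stem cell line, carrying Msx1-P2A-tdTomato, a red fluorescent reporter of the homeobox gene MSX1. Every group first went through the same steps towards mesoderm. On day 0 the medium held 50 ng/mL Activin A, 6 µM CHIR99021 (which inhibits GSK3), 40 ng/mL BMP4 and 10 ng/mL FGF2, and for the 3 days from day 1 it held 60 ng/mL BMP4 and 1 µM CHIR99021. On day 4 they were dissociated and made into pellets of 25000 cells, and on day 8 MSX1-positive cells were collected in a Pdgfra-positive and a Pdgfra-low population. The labels give 4 groups of 2 libraries, namely FGF8+10 Pdgfra-positive, FGF8+10 Pdgfra-low, Mock Pdgfra-positive and Mock Pdgfra-low. FGF8+10 means FGF8 and FGF10 at 500 ng/mL each after day 4. What the Mock medium contained is not given in the sources used here, since the same protocol, that of FGF8+10, stands in the labels of all libraries. The model is 1 reporter line. The labels call the replicates biological, but do not say whether the line is 1 clone or whether replicates came from separate differentiations. The p-values therefore measure the spread between these libraries, which may be smaller than that between separate differentiations.

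Heparan sulfate is a long sulfated sugar chain carried by proteins of the cell surface and the matrix. Xylosyltransferases start the linkage to the core protein, EXT enzymes lengthen the chain, and N-deacetylase/N-sulfotransferases, an epimerase and O-sulfotransferases then pattern it with sulfate. FGFs bind their receptors together with heparan sulfate, and 6-O-sulfate groups take part in that complex. Outside the cell, the sulfatases SULF1 and SULF2 remove 6-O-sulfate from finished chains, and both are known as modulators of growth factor signalling in embryonic tissues.

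Among the genes that add 6-O-sulfate, HS6ST1 rose and HS6ST2 and HS6ST3 fell with FGF8+10, and of those that remove it SULF1 and SULF2 rose. The promoters of 4 of these genes are printed here, since they are the members that act on that group. Each run holds 250 bases before and 50 bases after the RefSeq transcription start (GRCh38.p14), 5′ to 3′ along the gene, with CG dinucleotides in capitals. HS6ST1 lies at chr2:128318819-128319118, minus strand, HS6ST2 at chrX:132961321-132961620, minus strand, HS6ST3 at chr13:96089857-96090156, plus strand and SULF2 at chr20:47786578-47786877, minus strand.
HS6ST1: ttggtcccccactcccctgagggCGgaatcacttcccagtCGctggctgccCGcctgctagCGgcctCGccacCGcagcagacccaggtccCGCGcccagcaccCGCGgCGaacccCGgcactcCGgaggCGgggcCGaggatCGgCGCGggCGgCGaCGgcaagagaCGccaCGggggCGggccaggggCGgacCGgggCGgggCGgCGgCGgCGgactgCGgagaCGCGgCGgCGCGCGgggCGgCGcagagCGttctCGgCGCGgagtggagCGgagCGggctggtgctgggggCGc
HS6ST2: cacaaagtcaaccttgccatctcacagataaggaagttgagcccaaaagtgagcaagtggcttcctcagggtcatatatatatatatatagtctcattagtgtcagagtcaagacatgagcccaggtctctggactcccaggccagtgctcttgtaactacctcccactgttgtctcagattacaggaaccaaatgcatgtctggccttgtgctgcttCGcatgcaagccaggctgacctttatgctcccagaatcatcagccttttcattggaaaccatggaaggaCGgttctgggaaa
HS6ST3: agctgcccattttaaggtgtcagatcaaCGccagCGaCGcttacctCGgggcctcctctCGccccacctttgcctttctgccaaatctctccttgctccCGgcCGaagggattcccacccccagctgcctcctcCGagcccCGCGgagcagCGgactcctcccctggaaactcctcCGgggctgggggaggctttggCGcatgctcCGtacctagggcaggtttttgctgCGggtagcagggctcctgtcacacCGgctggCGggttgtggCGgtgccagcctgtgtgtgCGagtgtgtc
SULF2: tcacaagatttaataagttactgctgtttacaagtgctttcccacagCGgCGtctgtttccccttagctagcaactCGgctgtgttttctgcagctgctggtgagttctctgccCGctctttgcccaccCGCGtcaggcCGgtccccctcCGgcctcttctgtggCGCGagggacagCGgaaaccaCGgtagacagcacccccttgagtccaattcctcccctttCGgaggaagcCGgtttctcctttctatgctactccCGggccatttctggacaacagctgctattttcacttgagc

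The HS6ST1 window held 47 CG dinucleotides and 79.7% G or C. The HS6ST2 window held 2 and 47.3%, HS6ST3 19 and 65.0%, and SULF2 15 and 55.7%. Over all 35116 RefSeq promoters of this length the medians were 14 CG dinucleotides and 58.7%, so HS6ST1 was CG-rich and HS6ST2 CG-poor. Of the 38 genes, 32 had a promoter in the table, with medians of 29.5 and 68.2%, and 27 of these 32 were at or above the median CG number. EXT1, EXTL3, SULF1, GPC3, SDC2 and AGRN had no entry. An ETS motif in the form CCGGAAG (either strand) was present in 10.3% of all promoters and in 1 of the 32, that of B3GAT3. The shorter GGAA core was not searched. An AP-1 motif (TGANTCA, either strand) was present in 7.71% of all promoters and in 2 of the 32, those of NDST1 and NDST4. The first entry of each gene was used. That of NDST1 (chr5:150497529-150497828, plus strand) lies within the gene, whose annotated exons start at 150485818. The motifs do not contain each other. Neither motif in these forms occurred in the windows printed above.

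Depth was 47698561 to 64390444 counts per library, of which the 38 genes took 0.268% to 0.332%. The sort labels matched the RNA, since PDGFRA stood at 712 and 716 CPM (counts scaled to library size with edgeR's TMM factors) in Pdgfra-positive and 279 and 292 in Pdgfra-low libraries of the FGF8+10 arm, and at 453 and 455 against 194 and 189 with Mock. MSX1 was detected in every library, between 21.3 and 52.8 CPM. The sum of 10 limb mesenchyme markers, with the sort gene PDGFRA among them, was 1696 to 1715 CPM in Pdgfra-positive and 978 to 1007 in Pdgfra-low libraries with FGF8+10. With Mock it was 1306 to 1310 and 953 to 973. Summed levels of markers of other cell types differed between the groups too. The summed level of 8 cardiac muscle markers was 23.0 to 24.1 CPM in FGF8+10 Pdgfra-positive and 11.5 to 11.9 in FGF8+10 Pdgfra-low libraries, against 148 to 153 and 137 to 144 with Mock, with MYH6 and MYH7 at or near 0 throughout. The sum of 10 endothelial markers was 2130 to 2139 and 2575 to 2581 CPM with FGF8+10, against 1330 to 1343 and 1363 to 1371 with Mock. Most of that sum was KDR and TEK, whereas CDH5, PECAM1, ESAM and TIE1 reached 14.3 to 20.2 CPM in FGF8+10 Pdgfra-low libraries and at most 4.82 CPM elsewhere. The sum of 10 epithelial markers was 472 to 476 and 1294 to 1302 CPM with FGF8+10, and 667 and 1132 to 1137 with Mock, nearly all of it keratins, with EPCAM at most 1.10 CPM and CLDN3 and GRHL2 at or near 0. The sum of 8 mesothelial and epicardial markers was 243 to 251 and 277 CPM with FGF8+10, and 137 to 143 and 1064 to 1086 with Mock, the last of these mostly PODXL, with WT1 and MSLN near 0. The sum of 7 pluripotency markers was 219 to 224 and 286 to 287 CPM with FGF8+10, led by LIN28A, and 134 to 136 and 107 to 109 with Mock, led by TDGF1, with POU5F1 and NANOG at or near 0. In edgeR, 50.9% of all tested genes were called with FGF8+10 in Pdgfra-positive and 55.7% in Pdgfra-low cells. Beside that background, cardiac markers numbered 0 higher and 3 lower of 6 tested in Pdgfra-positive and 0 higher and 4 lower of 6 tested in Pdgfra-low cells, and endothelial markers 5 higher and 2 lower of 10 tested and 10 higher and 0 lower of 10 tested. Epithelial markers numbered 0 higher and 4 lower of 8 tested and 2 higher and 3 lower of 8 tested, and mesothelial and epicardial markers 3 higher and 3 lower of 8 tested and 4 higher and 4 lower of 8 tested. Pluripotency markers numbered 1 higher and 2 lower of 5 tested and 2 higher and 2 lower of 5 tested. Limb mesenchyme markers numbered 6 higher and 2 lower of 9 tested and 4 higher and 4 lower of 9 tested. The shares called of the cardiac and epithelial lists in Pdgfra-positive cells, 50.0% each, were near the background. The part of these cell types in the results that follow was not tested.

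FGF8+10 changed most of the pathway in both populations, and moved its members in both directions. In Pdgfra-positive cells 12 of the 37 genes that passed the filter on low counts rose and 19 fell at an adjusted p under 0.05 in edgeR's quasi-likelihood test, against 50.9% of all 22554 tested genes called. In Pdgfra-low cells 12 rose and 17 fell, against 55.7% of all tested genes called. Changes of at least 2-fold were made by 8 rising and 7 falling genes in Pdgfra-positive cells, where 17.1% of all genes passed that limit, and by 7 and 7 in Pdgfra-low cells, where 21.3% did. The 2 comparisons share no library. In both populations 11 members rose and 17 fell, and 0 moved in opposite directions, while over all tested genes 20%, 19.1% and 2.05% did so. These counts describe the list and are no test of it. The gene that did not pass the filter was NDST4, with 0 to 4 counts per library. Median absolute log2 fold changes were 0.55 in Pdgfra-positive and 0.44 in Pdgfra-low cells, beside 0.42 and 0.49 over all tested genes. With library totals in place of TMM factors the median of all genes shifted up by 0.17 and 0.16 on the log2 scale, and the members split into 16 higher and 16 lower in Pdgfra-positive and 17 and 15 in Pdgfra-low cells. Changes below are therefore relative to the bulk of the genes. In these bulk samples fewer cells of a type and less RNA per cell cannot be told apart.

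**Figure D1:**
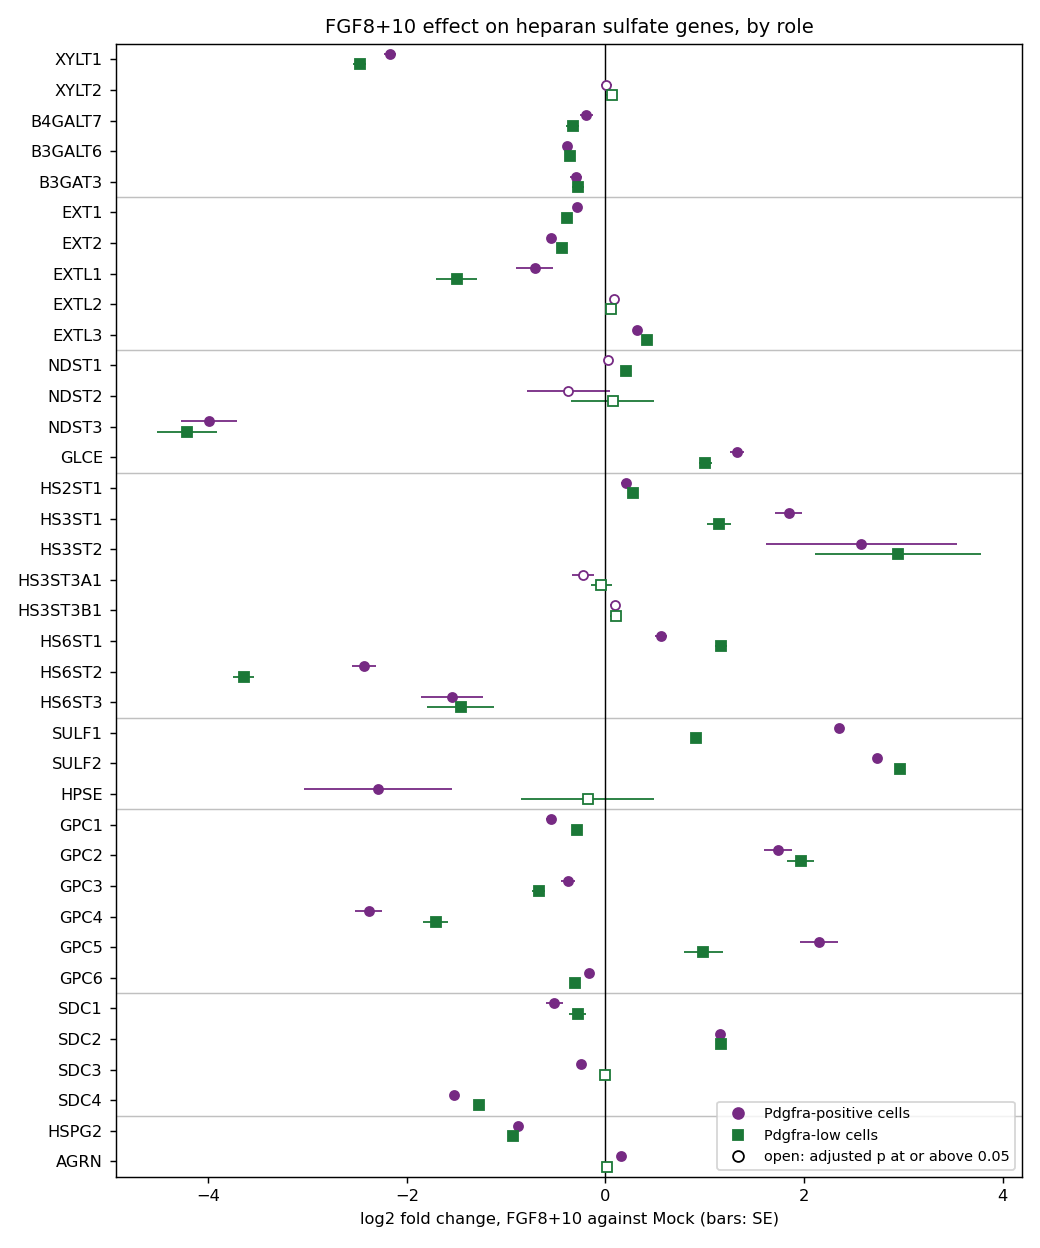
Log2 fold change with FGF8+10 against Mock (horizontal axis, bars are SE) for the 37 tested genes, in Pdgfra-positive cells (purple circles) and Pdgfra-low cells (green squares), with grey lines between roles and open symbols where the adjusted p was 0.05 or more. Symbols of the same gene lie on the same side of 0 wherever both are filled, and the longest bars belong to HS3ST2 and HPSE, which had few counts.

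Both 6-O-sulfatase genes rose in both populations. SULF2 stood at 177 and 183 CPM with FGF8+10 and 28.4 and 25.8 with Mock in Pdgfra-positive cells. In Pdgfra-low cells it stood at 296 and 299 CPM with FGF8+10 and 36.3 and 39.9 with Mock. Both FGF8+10 groups lay far above both Mock groups, with log2 fold changes (± SE) of 2.73 ± 0.041 (adjusted p = 3.27e-42) in Pdgfra-positive and 2.97 ± 0.038 (adjusted p = 4.81e-45) in Pdgfra-low cells (edgeR). SULF1 stood at 374 and 366 CPM with FGF8+10 and 74.4 and 70.6 with Mock in Pdgfra-positive cells, and at 155 and 153 against 81.8 and 81.6 in Pdgfra-low cells. It too rose in both, by 2.35 ± 0.032 (adjusted p = 2.15e-44) and by 0.91 ± 0.031 (adjusted p = 1.48e-28) (edgeR, log2), and the groups did not overlap. Per kilobase of exon, the scale on which genes can be compared, SULF1 and SULF2 with the heparanase gene HPSE summed to 65.2 to 65.3 and 58.9 to 59.3 CPM per kb with FGF8+10, against 11.3 to 12.1 and 13.97 to 14.5 with Mock. HPSE, which encodes the enzyme that cuts the chain itself, was barely detected, with 4 and 8 counts in Pdgfra-positive and 8 and 25 in Pdgfra-low libraries with FGF8+10, and 21 and 20 against 15 and 25 with Mock. It fell in Pdgfra-positive cells (log2 fold change -2.29 ± 0.74, adjusted p = 0.00856, edgeR), a call lost without FGF8+10 Pdgfra-positive replicate 1, and did not pass the test in Pdgfra-low cells (adjusted p = 0.845, edgeR).

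The 6-O-sulfotransferases, which add the group the sulfatases remove, did not move as one. HS6ST1 stood at 33.1 and 32.4 CPM with FGF8+10 and 22.1 and 22.4 with Mock in Pdgfra-positive cells, and at 50.9 and 52.2 against 22.4 and 23.8 in Pdgfra-low cells. It was higher in all 4 FGF8+10 libraries, by 0.56 ± 0.063 (adjusted p = 1.98e-10) and 1.16 ± 0.060 (adjusted p = 1.64e-21) (edgeR, log2). HS6ST2 ran the other way, from 9.99 and 11.9 CPM with Mock to 2.13 and 1.93 with FGF8+10 in Pdgfra-positive cells, and from 43.4 and 40.7 to 3.56 and 3.17 in Pdgfra-low cells. Its highest level was in the Mock Pdgfra-low libraries, and its log2 fold changes were -2.43 ± 0.12 (adjusted p = 4.98e-22) and -3.64 ± 0.11 (adjusted p = 4.89e-31) (edgeR). HS6ST3 was low throughout, at 0.829 and 0.677 CPM in Pdgfra-positive and 0.566 and 0.426 in Pdgfra-low libraries with FGF8+10, and at 2.29 and 2.12 against 1.23 and 1.49 with Mock. It fell by 1.54 ± 0.31 and 1.46 ± 0.34 on the log2 scale (edgeR, adjusted p = 4.03e-05 and 0.000239). Per length, HS6ST2 was the higher of these 2 genes in Mock Pdgfra-low cells and HS6ST1 in the other groups, though with GENCODE 29 transcript lengths they were level in Mock Pdgfra-positive cells (5.65 and 5.66 CPM per kb). The ratio of HS6ST2 to HS6ST1 per kilobase was 1.88 and 1.66 for Pdgfra-low and 0.439 and 0.516 for Pdgfra-positive cells with Mock. With FGF8+10 it was 0.0680 and 0.0590 in Pdgfra-low and 0.0626 and 0.0578 in Pdgfra-positive libraries. Of the windows printed above, that of HS6ST1 was CG-rich and that of HS6ST2 CG-poor. HS6ST3, which also fell, had 19 CG dinucleotides, above the median of 14 over all promoters. A link between window and response was not tested.

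**Figure D2:**
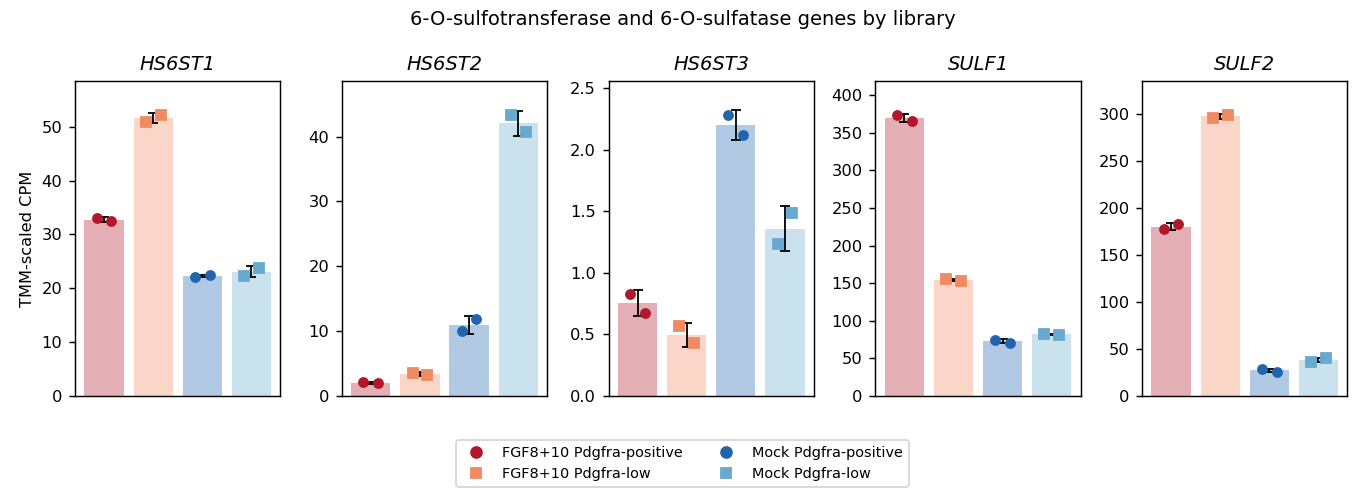
Level in TMM-scaled CPM of HS6ST1, HS6ST2, HS6ST3, SULF1 and SULF2, with a separate vertical axis for each gene, points for the 2 libraries of a group, bars for their mean and error bars for the SD. HS6ST2 is highest in Mock Pdgfra-low cells, SULF1 in FGF8+10 Pdgfra-positive cells and SULF2 in FGF8+10 Pdgfra-low cells.

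The other O-sulfotransferases act at other positions of the sugar. HS2ST1, the 2-O-sulfotransferase gene, stood at 79.5 and 77.8 CPM in Pdgfra-positive and 94.5 and 98.8 in Pdgfra-low libraries with FGF8+10, and at 68.8 and 68.0 against 77.0 and 82.3 with Mock. It rose by small amounts, 0.20 ± 0.041 (adjusted p = 4.62e-05) and 0.28 ± 0.040 (adjusted p = 5.12e-08) (edgeR, log2). HS3ST1, a 3-O-sulfotransferase gene whose product makes the antithrombin-binding site, went from 3.45 and 3.47 CPM with Mock to 12.7 and 12.2 with FGF8+10 in Pdgfra-positive cells and from 4.86 and 5.54 to 10.4 and 12.6 in Pdgfra-low cells. The groups did not overlap, with log2 fold changes of 1.84 ± 0.13 (adjusted p = 2.19e-16) and 1.14 ± 0.12 (adjusted p = 4.95e-11) (edgeR). HS3ST2 was near the limit of detection, with 18 and 18 counts in Pdgfra-positive and 32 and 26 in Pdgfra-low libraries with FGF8+10, and 0 and 4 against 2 and 6 with Mock. It passed the test in Pdgfra-positive (edgeR adjusted p = 0.0225) and Pdgfra-low cells (edgeR adjusted p = 0.00250), and the first of these calls was lost without either FGF8+10 Pdgfra-positive library and without Mock Pdgfra-positive replicate 1. HS3ST3B1 stood at 72.7 and 73.8 CPM in Pdgfra-positive and 49.6 and 49.6 in Pdgfra-low libraries with FGF8+10, and at 62.9 and 73.8 against 45.0 and 47.3 with Mock. Per kilobase on the lengths of the table it was the most abundant O-sulfotransferase gene in Pdgfra-positive cells, whereas with GENCODE 29 transcript lengths HS2ST1 was (18.9 against 13.6 CPM per kb with FGF8+10 and 16.4 against 12.7 with Mock). Neither it nor HS3ST3A1, at 9.40 to 13.4 CPM, passed the FGF8+10 test in either population (edgeR adjusted p from 0.078 to 0.78).

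N-sulfation guides where the later enzymes work, and NDST1 had nearly all of the counted N-sulfotransferase RNA. It stood at 189 and 183 CPM in Pdgfra-positive and 203 and 199 in Pdgfra-low libraries with FGF8+10, and at 185 and 181 against 177 and 173 with Mock. These libraries lay close together, and the only call was a small rise in Pdgfra-low cells (0.20 ± 0.029, adjusted p = 4.40e-08, edgeR, log2). NDST3 was detected mainly with Mock, at 291 and 345 counts in Pdgfra-positive and 369 and 407 in Pdgfra-low libraries, against 21 and 37 in Pdgfra-positive and 31 and 7 in Pdgfra-low libraries with FGF8+10. It fell in both, with log2 fold changes of -3.99 ± 0.28 (adjusted p = 2.03e-14) and -4.21 ± 0.30 (adjusted p = 2.11e-14) (edgeR). In Pdgfra-low cells the fold change was -5.72 without FGF8+10 replicate 1 of that population and -3.44 without replicate 2. NDST2 had only 28 to 45 counts per library and no call, and 82.9% of its exon bases are shared with another annotated gene, where reads over both genes were not counted. GLCE encodes the epimerase that turns glucuronic into iduronic acid. It went from 12.7 and 12.5 CPM with Mock to 31.6 and 31.7 with FGF8+10 in Pdgfra-positive cells, and from 18.1 and 19.7 to 38.7 and 37.1 in Pdgfra-low cells. All 4 FGF8+10 libraries lay above all Mock libraries, with log2 fold changes of 1.32 ± 0.073 (adjusted p = 2.10e-20) and 1.01 ± 0.068 (adjusted p = 2.30e-17) (edgeR).

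At the start of the chain, XYLT1 had the largest change of the linkage enzyme genes. XYLT1 and XYLT2 encode the xylosyltransferases that place the first sugar on the core protein. XYLT1 went from 75.0 and 70.8 CPM with Mock to 16.4 and 16.0 with FGF8+10 in Pdgfra-positive cells, and from 51.5 and 54.2 to 9.28 and 9.69 in Pdgfra-low cells. The FGF8+10 libraries all lay below the Mock ones, with log2 fold changes of -2.17 ± 0.060 (adjusted p = 6.05e-32) and -2.48 ± 0.065 (adjusted p = 7.63e-33) (edgeR). XYLT2 stood at 37.4 to 43.7 CPM in all libraries and did not pass the test in Pdgfra-positive (log2 fold change 0.01 ± 0.055, adjusted p = 0.899, edgeR) or Pdgfra-low cells (0.064 ± 0.055, adjusted p = 0.337). The ratio of XYLT1 to XYLT2 per kilobase was 0.889 and 0.805 in Pdgfra-positive and 0.680 and 0.680 in Pdgfra-low libraries with Mock, and 0.186 and 0.188 and then 0.113 and 0.121 with FGF8+10. The later linkage enzyme genes B4GALT7, B3GALT6 and B3GAT3 fell in both populations, with log2 fold changes between -0.20 and -0.38. Those of B3GAT3 in both populations and of B4GALT7 in Pdgfra-positive cells were not called with library totals, and that of B4GALT7 was also lost without FGF8+10 Pdgfra-positive replicate 2 and without Mock Pdgfra-positive replicate 1. Per kilobase the 5 linkage genes summed to 47.1 to 48.2 and 46.2 to 47.1 CPM per kb with FGF8+10 and 62.4 to 62.7 and 58.5 to 61.4 with Mock. On these lengths B3GALT6 was the most abundant of them in every group, at 56.3 and 55.2 CPM in Pdgfra-positive and 54.4 and 56.0 in Pdgfra-low libraries with FGF8+10, and at 71.0 and 74.5 against 68.6 and 72.8 with Mock.

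Of the 5 EXT and EXTL genes, listed for chain initiation and polymerisation, EXT1, EXT2 and EXTL1 fell and EXTL3 rose in both populations. The only change past 2-fold was that of EXTL1 in Pdgfra-low cells. EXT1 and EXT2, which encode the subunits of the polymerase, stood at 168 and 175 CPM (EXT1) and 85.0 and 84.0 CPM (EXT2) in Pdgfra-positive cells with FGF8+10, and at 208 and 209 CPM (EXT1) and 124 and 124 CPM (EXT2) with Mock. Both fell in Pdgfra-positive (-0.28 ± 0.029 and -0.55 ± 0.034 on the log2 scale) and Pdgfra-low cells (-0.39 ± 0.029 and -0.44 ± 0.034). EXTL3, whose product adds the first glucosamine and so commits the chain to heparan sulfate, rose by 0.32 ± 0.036 (adjusted p = 2.71e-10) and 0.42 ± 0.036 (adjusted p = 3.29e-14) (edgeR, log2). EXTL2 stood at 83.9 and 87.2 CPM in Pdgfra-positive and 87.1 and 87.9 in Pdgfra-low libraries with FGF8+10, and at 82.8 and 79.0 against 84.7 and 83.2 with Mock. It did not pass the test in Pdgfra-positive (edgeR adjusted p = 0.0781) or Pdgfra-low cells (edgeR adjusted p = 0.188). With library totals it was called higher in both populations (0.25 and 0.22, log2). In Pdgfra-positive cells it was also called higher without the filter (0.10) and in some fits without 1 library. EXTL1 was low, at 3.21 and 3.11 CPM in Pdgfra-positive and 1.24 and 1.55 in Pdgfra-low libraries with FGF8+10, and at 5.91 and 4.46 against 3.75 and 4.18 with Mock. It fell in Pdgfra-low (-1.5 ± 0.21, adjusted p = 2.17e-08, edgeR, log2) and in Pdgfra-positive cells (-0.71 ± 0.19, adjusted p = 0.00112), where the call was lost without Mock Pdgfra-positive replicate 1. The sum of the 5 genes was 48.7 to 49.8 and 47.8 to 48.2 CPM per kb with FGF8+10, and 52.0 to 53.0 and 51.6 to 51.9 with Mock, on the lengths of the table.

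**Figure D3:**
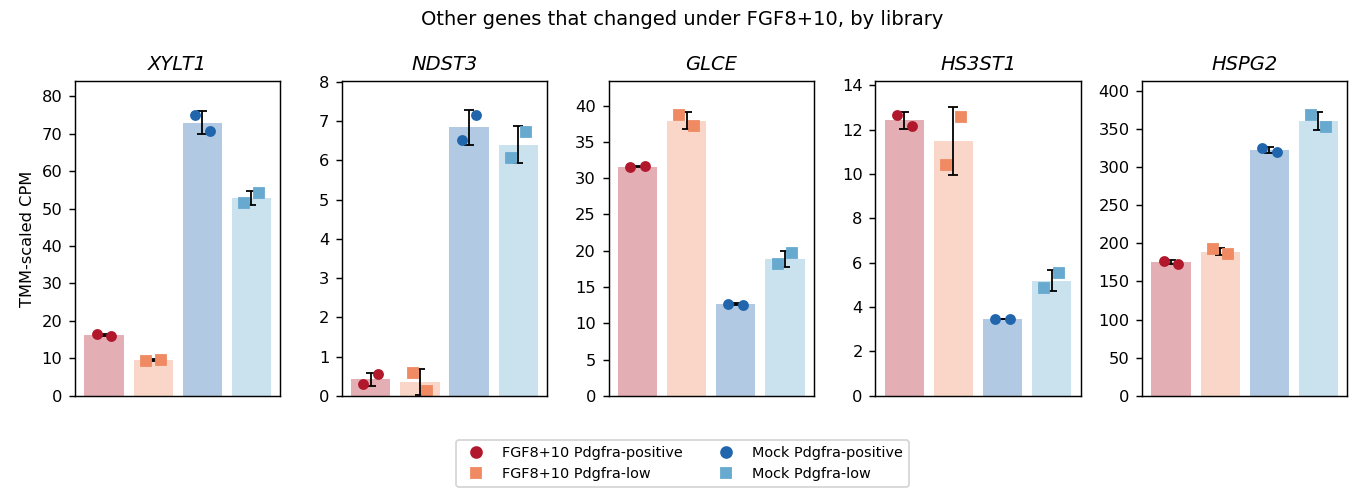
Level in TMM-scaled CPM of XYLT1, NDST3, GLCE, HS3ST1 and the perlecan gene HSPG2, with a separate vertical axis for each gene, points for the 2 libraries of a group, bars for their mean and error bars for the SD. XYLT1, NDST3 and HSPG2 are lower and GLCE and HS3ST1 higher in all 4 FGF8+10 libraries than in all 4 Mock libraries.

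Among the core proteins, the syndecans, which span the membrane, had members that moved in opposite directions. SDC2 went from 117 and 113 CPM with Mock to 252 and 259 with FGF8+10 in Pdgfra-positive cells and from 85.1 and 86.5 to 193 and 193 in Pdgfra-low cells, log2 fold changes of 1.16 ± 0.030 (adjusted p = 7.30e-33) and 1.17 ± 0.031 (adjusted p = 6.50e-33) (edgeR). SDC4, a syndecan of focal adhesions, went from 171 and 173 to 60.6 and 59.4 CPM in Pdgfra-positive and from 214 and 219 to 88.6 and 89.5 CPM in Pdgfra-low cells, log2 fold changes of -1.52 ± 0.033 (adjusted p = 3.00e-36) and -1.28 ± 0.032 (adjusted p = 5.61e-34) (edgeR). For both genes the FGF8+10 and Mock libraries did not overlap. Per kilobase the ratio of SDC4 to SDC2 was 2.29 and 2.41 in Pdgfra-positive and 3.92 and 3.95 in Pdgfra-low libraries with Mock, and 0.376 and 0.359 and then 0.718 and 0.725 with FGF8+10. The ratio of lengths enters these values, and with the median length of GENCODE 29 transcripts SDC2 was already the highest syndecan in Mock Pdgfra-positive cells. SDC3 stood at 245 to 316 CPM and fell only slightly in Pdgfra-positive cells (-0.25 ± 0.025, adjusted p = 1.16e-11, edgeR, log2), with no call in Pdgfra-low cells (adjusted p = 0.888, edgeR). SDC1, an epithelial syndecan, was low at 10.8 to 20.2 CPM and fell by 0.51 ± 0.090 and 0.28 ± 0.086 on the log2 scale, the second call being lost with library totals, without FGF8+10 Pdgfra-low replicate 1 and without Mock Pdgfra-low replicate 2. On the lengths of the table the 4 syndecans summed to 125 to 127 and 120.5 to 122 CPM per kb with FGF8+10. With Mock the sums were 143 and 144 to 145. The direction of this difference depended on the lengths. With GENCODE 29 lengths SDC2 stood at 176 and 133 CPM per kb with FGF8+10 and at 79.0 and 59.2 with Mock. SDC4 stood at 23.0 and 34.1 against 65.9 and 82.7, and the sum was higher with FGF8+10 in both populations.

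Glypicans are tethered to the membrane by a lipid anchor, and GPC6 made up most of their RNA in every group. GPC6 stood at 450.0 and 452 CPM in Pdgfra-positive and 256 and 251 in Pdgfra-low libraries with FGF8+10, and at 504 and 509.9 against 314 and 316 with Mock. It was higher in Pdgfra-positive than in Pdgfra-low libraries under both treatments. Its small fall with FGF8+10 (-0.17 ± 0.023, adjusted p = 1.67e-08 in Pdgfra-positive and -0.31 ± 0.023, adjusted p = 7.15e-16 in Pdgfra-low cells, edgeR, log2) turned to 0.0039 in Pdgfra-positive cells with library totals. GPC4 went from 12.3 and 14.7 CPM with Mock to 2.21 and 2.96 with FGF8+10 in Pdgfra-positive cells, and from 15.8 and 15.0 to 4.53 and 4.88 in Pdgfra-low cells. The FGF8+10 libraries all lay below the Mock ones, with log2 fold changes of -2.39 ± 0.14 (adjusted p = 5.69e-20) and -1.71 ± 0.13 (adjusted p = 4.15e-16) (edgeR). GPC2 rose from 3.76 and 2.91 to 11.4 and 10.8 CPM in Pdgfra-positive and from 3.15 and 2.78 to 11.3 and 11.9 CPM in Pdgfra-low cells, log2 fold changes of 1.74 ± 0.14 (adjusted p = 7.47e-15) and 1.97 ± 0.14 (adjusted p = 5.83e-17) (edgeR). GPC5 rose from 1.75 and 2.03 to 8.23 and 8.63 CPM in Pdgfra-positive cells and from 1.79 and 1.51 to 2.66 and 3.85 CPM in Pdgfra-low cells, log2 fold changes of 2.15 ± 0.19 (adjusted p = 1.45e-13) and 0.99 ± 0.20 (adjusted p = 3.15e-05) in edgeR. For both genes all FGF8+10 libraries lay above all Mock libraries. GPC1, at 41.0 to 67.2 CPM, and GPC3, the gene of Simpson-Golabi-Behmel overgrowth syndrome, at 20.9 to 38.4 CPM, fell in both populations, with log2 fold changes between -0.29 and -0.67.

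**Figure D4:**
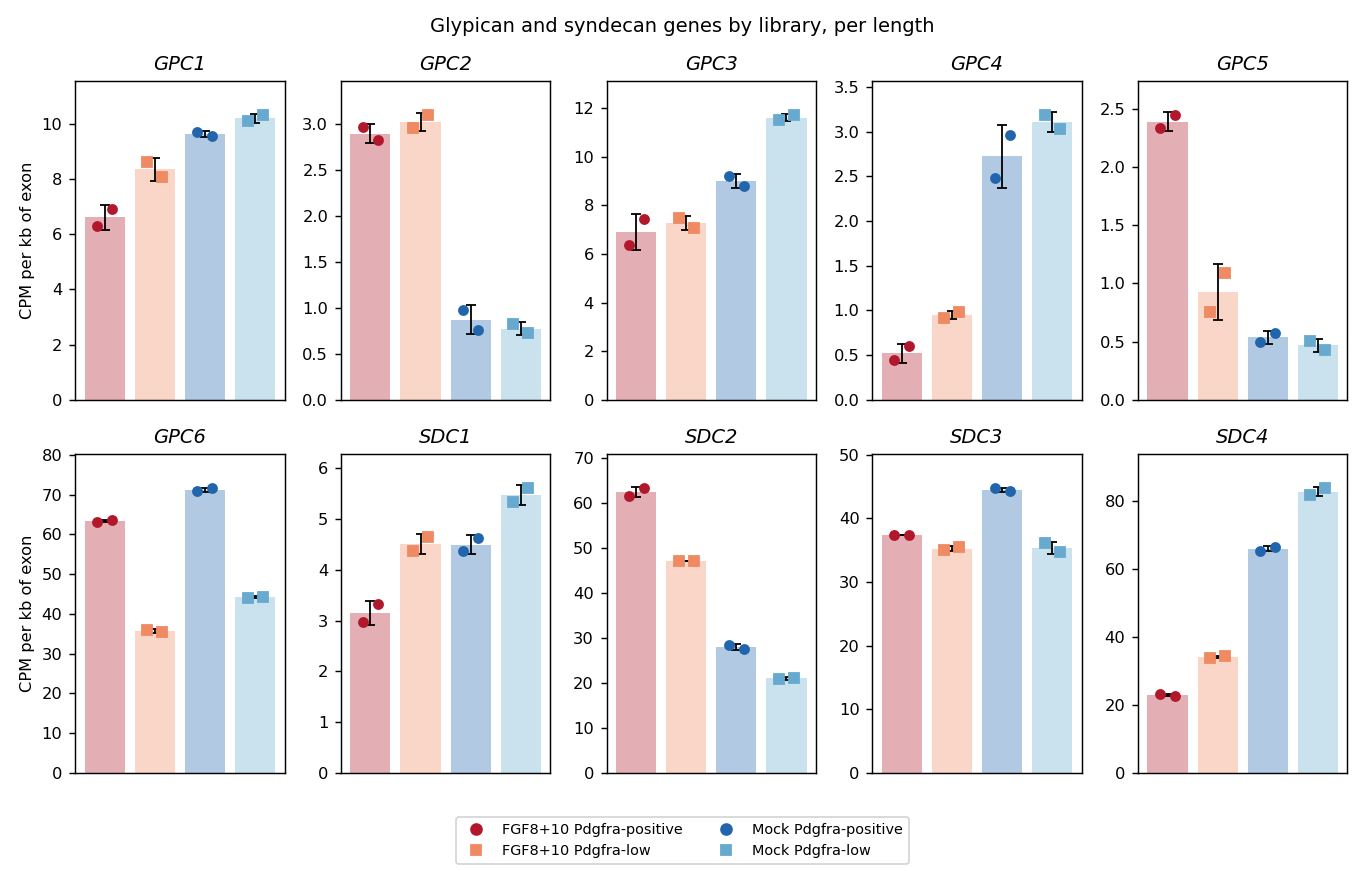
Level in CPM per kb of exon of the 6 glypican genes and the 4 syndecan genes, with a separate vertical axis for each gene, points for the 2 libraries of a group, bars for their mean and error bars for the SD. GPC6 exceeds every other glypican in every group, SDC2 is higher and SDC4 lower in all FGF8+10 libraries, and GPC5 is highest in FGF8+10 Pdgfra-positive cells.

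Neighbouring glypican genes did not all move together. GPC5 (chromosome 13, 91398621 to 92873682, plus strand) and GPC6 (chromosome 13, 93226807 to 94408020, plus strand) follow each other on the build of the table, GRCh38, and GPC5 rose while GPC6 fell slightly. HS6ST2 (chromosome X, 132626015 to 132961395, minus strand), GPC4 (chromosome X, 133300103 to 133415489, minus strand) and GPC3 (chromosome X, 133535745 to 133987100, minus strand) lie in the same stretch of the X chromosome, and all fell with FGF8+10 in both populations. SULF2 (chromosome 20, 47656197 to 47786616, minus strand) and SDC4 (chromosome 20, 45325288 to 45348424, minus strand) lie on 1 chromosome arm and moved in opposite directions. XYLT1 is at chromosome 16, 17101769 to 17470960, minus strand, HS6ST1 at chromosome 2, 128236716 to 128318868, minus strand, GLCE at chromosome 15, 69160584 to 69272217, plus strand and NDST3 at chromosome 4, 118033618 to 118258634, plus strand. The counts cover all annotated exons of a gene and were made without strand. Beside NDST2, the genes with the most exon bases shared with another gene, where reads were not counted, were HSPG2 (11.7%), HS2ST1 (8.50%), GPC6 (7.17%), SULF2 (6.58%) and EXTL2 (6.28%).

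Of the basement membrane core proteins, the perlecan gene fell and the agrin gene moved little. HSPG2, the perlecan gene, stood at 177 and 173 CPM in Pdgfra-positive and 192 and 186 in Pdgfra-low libraries with FGF8+10, and at 325 and 319.7 against 368 and 352 with Mock, with log2 fold changes of -0.88 ± 0.027 (adjusted p = 3.75e-30) and -0.93 ± 0.027 (adjusted p = 2.70e-31) (edgeR). No FGF8+10 library reached a Mock library. AGRN, the agrin gene, stood at 222 and 209 CPM in Pdgfra-positive and 193 and 191 in Pdgfra-low libraries with FGF8+10, and at 202 and 186 against 195 and 184 with Mock. It rose slightly in Pdgfra-positive cells (0.15 ± 0.033, adjusted p = 0.000153, edgeR, log2) and did not pass the test in Pdgfra-low cells (0.017 ± 0.033, adjusted p = 0.693).

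Ordered by level per kilobase, on the lengths of the table and on GENCODE 29 transcript lengths alike, a core protein gene came first in every group, and a sulfatase gene was among the 3 highest in both FGF8+10 groups but not among the 8 highest in either Mock group. The order of the core protein genes depended on the lengths, and the values that follow use those of the table unless stated. In FGF8+10 Pdgfra-positive cells GPC6 at 63.4 ± 0.23 (SD, n = 2) and SDC2 at 62.5 ± 1.2 CPM per kb did not differ beyond their spread, and SULF1 followed at 39.5 ± 0.61. With GENCODE 29 lengths SDC2 (176) lay above GPC6 (124). In FGF8+10 Pdgfra-low cells SDC2 came first at 47.2 ± 0.011, SULF2 second at 42.6 ± 0.34, and GPC6 and SDC3 next, at 35.6 ± 0.47 and 35.2 ± 0.38, within their spread of each other on the lengths of the table. In Mock Pdgfra-positive cells the order was GPC6 at 71.2 ± 0.53, SDC4 at 65.9 ± 0.71 and SDC3 at 44.5 ± 0.33. In Mock Pdgfra-low cells SDC4 led at 82.7 ± 1.4, ahead of GPC6 at 44.2 ± 0.18. With GENCODE 29 lengths SDC4 was the fourth in Mock Pdgfra-positive cells, and in Mock Pdgfra-low cells GPC6 (86.7) lay above SDC4 (82.7). Of the genes that make or sulfate the chain, B3GALT6 had the highest mean on the lengths of the table, 25.9 ± 0.89 CPM per kb in Mock Pdgfra-positive cells.

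Between the sorted populations the median absolute log2 difference of the members was 0.30 under FGF8+10 and 0.22 under Mock, below the medians between treatments. Over all tested genes it was 0.33 and 0.22, likewise below the 0.42 and 0.49 between treatments. Under FGF8+10, 10 members were higher and 12 lower in Pdgfra-positive than in Pdgfra-low cells, against 41.4% of all tested genes called. Under Mock 8 were higher and 10 lower, against 25.8% of all tested genes called. With library totals these numbers were 6 and 11. Of the 8, XYLT2 (0.15, log2) kept its call in only 1 of 14 alternatives, HS3ST3A1 (0.30) in 6 and EXT1 (0.10) in 12. GPC6 (0.83 ± 0.023, adjusted p = 5.75e-31 under FGF8+10 and 0.69 ± 0.023, adjusted p = 1.28e-27 under Mock, edgeR, log2) and HS3ST3B1 (0.56 ± 0.051 and 0.57 ± 0.052) were higher in Pdgfra-positive cells under both treatments. So were XYLT1 (0.77 ± 0.071 and 0.46 ± 0.055) and SDC2 (0.40 ± 0.029 and 0.42 ± 0.032). SDC4 (-0.57 ± 0.033 and -0.33 ± 0.030), SULF2 (-0.72 ± 0.033 and -0.49 ± 0.046), SDC1 (-0.52 ± 0.089 and -0.28 ± 0.087) and HS2ST1 (-0.30 ± 0.040 and -0.22 ± 0.041) were lower under both. The call of SDC1 under Mock was lost without Mock Pdgfra-positive replicate 1 and without Mock Pdgfra-low replicate 2. HS6ST2 was the only member past 2-fold between the populations under Mock, at -1.94 ± 0.094 (adjusted p = 1.13e-21) (edgeR, log2), and under FGF8+10 the members past 2-fold were SULF1, GPC5 and EXTL1, at 1.26 ± 0.029, 1.37 ± 0.17 and 1.17 ± 0.21. Epithelial markers numbered 0 higher and 5 lower of 8 tested in Pdgfra-positive against Pdgfra-low cells under FGF8+10, and 0 higher and 4 lower of 8 tested under Mock. The endothelial junction markers were highest in the FGF8+10 Pdgfra-low libraries and PODXL in the Mock Pdgfra-low ones, as given above. HPSE and NDST3 were not called between the populations under FGF8+10, but were without FGF8+10 Pdgfra-low replicate 1, at -2.24 and 1.83 on the log2 scale, and the 2 libraries of that group held 8 and 25 counts of HPSE and 31 and 7 of NDST3.

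The size of the FGF8+10 response differed between the populations for 18 members, 11 with a positive and 7 with a negative difference (Pdgfra-positive minus Pdgfra-low), against 26.0% of all tested genes. The first of these numbers was 7 with DESeq2, without Mock Pdgfra-positive replicate 2 and without Mock Pdgfra-low replicate 2. SULF1 had the largest difference, 1.44 ± 0.044 (adjusted p = 7.68e-29) (edgeR, log2), so that it rose further in Pdgfra-positive cells, whereas SULF2 differed by -0.23 ± 0.057 (adjusted p = 0.00143) in the other direction. The SULF2 call was lost without Mock Pdgfra-positive replicate 1 and without Mock Pdgfra-low replicate 1. The ratio of SULF1 to SULF2 per kilobase was 1.57 and 1.49 in FGF8+10 Pdgfra-positive and 0.390 and 0.381 in FGF8+10 Pdgfra-low libraries, while with Mock it was 1.95 and 2.04 in Pdgfra-positive and 1.68 and 1.52 in Pdgfra-low libraries. HS6ST2 fell further in Pdgfra-low cells (difference 1.21 ± 0.17, adjusted p = 1.54e-07, edgeR, log2), GPC5 rose further in Pdgfra-positive cells (1.17 ± 0.28, adjusted p = 0.000890), and these 3 genes were the members whose difference passed 2-fold, where 4.44% of all genes did. HS3ST1 rose further in Pdgfra-positive (0.70 ± 0.18, adjusted p = 0.00269, edgeR) and HS6ST1 in Pdgfra-low cells (-0.60 ± 0.087, adjusted p = 2.87e-07). SDC2 rose in both by amounts whose difference was -0.012 ± 0.043 on the log2 scale and did not pass the test (adjusted p = 0.891, edgeR).

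Other genes of sulfated sugar chains were read from lists that hold none of the 38. Of the other heparan sulfate genes, 2 were higher and 5 lower of 8 tested in Pdgfra-positive cells and 3 were higher and 4 lower of 8 tested in Pdgfra-low cells. The 3-O-sulfotransferase gene HS3ST5 fell from 7.50 and 6.99 to 0.311 and 0.177 CPM in Pdgfra-positive and from 6.32 and 5.39 to 0.453 and 0.460 CPM in Pdgfra-low cells (-4.88 ± 0.26, adjusted p = 2.86e-21 and -3.67 ± 0.24, adjusted p = 5.38e-18, edgeR, log2). HPSE2, whose product binds heparan sulfate without cutting it, fell by 2.47 ± 0.083 and 3.65 ± 0.10 on the log2 scale, and the coreceptor gene TGFBR3 by 1.02 ± 0.021 and 1.23 ± 0.021. PXYLP1, a phosphatase of the linkage xylose, rose by 1.01 ± 0.12 and 1.25 ± 0.12. Among genes that supply sulfate and sugar donors, 3 were higher and 7 lower of 10 tested in Pdgfra-positive and 3 were higher and 6 lower of 10 tested in Pdgfra-low cells. These lists are to be read against the 50.9% and 55.7% of all tested genes called in the same comparisons. In the lysosomal breakdown of heparan sulfate 2 were higher and 3 lower of 8 tested in Pdgfra-positive cells (62.5% called), and 3 were higher and 4 lower of 8 tested in Pdgfra-low cells (87.5% called).

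Chondroitin and dermatan sulfate are built on the same linkage sugars. Of 15 tested genes, 7 fell by at least 2-fold in Pdgfra-positive and 6 in Pdgfra-low cells and 1 rose by as much in each, where 17.1% and 21.3% of all tested genes passed that limit in either direction. In this list 3 were higher and 9 lower of 15 tested in Pdgfra-positive cells and 5 were higher and 9 lower of 15 tested in Pdgfra-low cells, against 50.9% and 55.7% of all tested genes called, with median log2 fold changes of -0.70 and -0.83 beside -0.23 and -0.041 for the 37 heparan sulfate genes. CSGALNACT1, whose product starts the chondroitin chain, went from 135 and 132 CPM with Mock to 2.22 and 2.37 with FGF8+10 in Pdgfra-positive cells and from 88.7 and 86.8 to 2.40 and 1.47 in Pdgfra-low cells. All FGF8+10 libraries lay far below all Mock ones, with log2 fold changes of -5.86 ± 0.077 (adjusted p = 1.39e-44) and -5.52 ± 0.083 (adjusted p = 2.92e-42) (edgeR). CHSY3, CHPF, CHST15, UST and DSE also fell by at least 2-fold in both populations, whereas the 4-O-sulfotransferase gene CHST11 rose, by 3.10 ± 0.12 and 4.41 ± 0.13 on the log2 scale. The FGF receptors with which heparan sulfate acts were read beside these lists. FGFR1 rose (1.01 ± 0.030 and 0.79 ± 0.030), and FGFR2 (-2.55 ± 0.021 and -3.53 ± 0.022), FGFR3 (-3.25 ± 0.051 and -3.00 ± 0.048), FGFR4 (-1.35 ± 0.27 and -1.83 ± 0.26) and FGFRL1 (-0.88 ± 0.061 and -0.55 ± 0.060) fell.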

How the data were processed

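RNA was measured in 8 libraries, in 4 groups of 2 as the sample titles give them. What the authors deposited is a single matrix of raw read counts, with gene names as rows and an exon length in bases, which served for levels per kilobase. The submitters' processing notes name FastQC 0.11.8, HISAT2 2.1.0 as aligner and GRCh38 as genome. Counting was by featureCounts 2.0.3 on GENCODE 42 without strand, per the file headers. Each mate counted on its own, which overstates the number of independent fragments, and a read overlapping several genes was not counted. The table has 0 unused sample columns.

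The analysis used edgeR 4.0.16 with limma 3.58.1 in R 4.3.3. Genes passing filterByExpr (22554) were scaled by TMM (factors 0.936 to 1.065). A robust quasi-likelihood model with 4 group means was fitted to the 8 libraries together, leaving 4 residual degrees of freedom. The 5 contrasts were tested two-sided, each with Benjamini-Hochberg adjustment over all tested genes at 0.05. The SE of a log2 fold change was its absolute value over the root of the F statistic. The common biological coefficient of variation was 4.06%. Alternatives were DESeq2 1.42.0, its size factors, library totals, no filter, each comparison's own 4 libraries, a replicate block, each library left out, and, added after seeing the data, GENCODE 29 transcript lengths. Values per library are given for genes past 2-fold in an FGF8+10 comparison and for the most abundant gene of a role per kilobase of table length. The 38 genes, their roles and the other gene lists were chosen with earlier results of these data known.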

Additional observations from a re-analysis of the deposited data

Results flagged for a closer look

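The FGF8+10 effect in Pdgfra-positive minus that in Pdgfra-low cells passed edgeR's test of the difference itself for 18 genes, and each is given here on the log2 scale. The difference was 1.44 for SULF1, 1.21 for HS6ST2, 1.17 for GPC5 and 0.70 for HS3ST1, and these calls held with each library left out in turn. Those of HS6ST1 (-0.60), XYLT1 (0.31), SDC3 (-0.25), SDC4 (-0.24), NDST1 (-0.17) and GPC6 (0.14) did so too.

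The other 8 calls were lost when at least 1 library was left out. EXTL1 (0.78) lost it without either FGF8+10 Pdgfra-positive library, FGF8+10 Pdgfra-low replicate 1, Mock Pdgfra-positive replicate 2 or Mock Pdgfra-low replicate 2, with values from 0.60 to 0.82. EXT1 (0.11) lost it without FGF8+10 Pdgfra-positive replicate 2 or any 1 of the 4 Mock libraries, with values from 0.092 to 0.12. GPC4 (-0.68) lost it without FGF8+10 Pdgfra-positive replicate 1 (-0.47) and without Mock Pdgfra-positive replicate 2 (-0.53). GLCE (0.32) lost it without FGF8+10 Pdgfra-low replicate 2 (0.30) and without Mock Pdgfra-low replicate 2 (0.26). GPC3 (0.29) lost it without replicate 2 of any 1 of the 4 groups, with values from 0.19 to 0.29. AGRN (0.14) lost it without FGF8+10 Pdgfra-positive replicate 1, FGF8+10 Pdgfra-low replicate 2, Mock Pdgfra-positive replicate 2 or Mock Pdgfra-low replicate 1, with values from 0.084 to 0.14. GPC1 (-0.25) lost it without FGF8+10 Pdgfra-positive replicate 1 (-0.17) and without FGF8+10 Pdgfra-low replicate 1 (-0.19). SULF2 (-0.23) lost it without Mock Pdgfra-positive replicate 1 and without Mock Pdgfra-low replicate 1, at -0.16 in each.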

How the results depend on the processing

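The 118 called member results gave 1634 tests under the alternatives, of which 1563 kept direction and call, 70 kept direction only and 1 reversed. That 1 was GPC6 with FGF8+10 in Pdgfra-positive cells, 0.0039 on the log2 scale with library totals (edgeR adjusted p = 0.905). Its value in the main fit was -0.17, and the median of all genes shifted up by 0.17 with library totals in that comparison. Of the members past 2-fold with FGF8+10, 13 of 15 in Pdgfra-positive and 14 of 14 in Pdgfra-low cells kept their call in all alternatives, HS3ST2 and HPSE being the exceptions. DESeq2 gave 7 members with a positive difference between the FGF8+10 effects, in place of 11, and the cause was not tested. In the FGF8+10 comparisons, library totals also called some members higher that the main fit did not call. These were EXTL2, HS3ST3B1 and XYLT2 in both populations, NDST1 in Pdgfra-positive cells, and AGRN and SDC3 in Pdgfra-low cells (0.16 to 0.27, log2). Leaving out 1 library at a time gave 5 to 7 members higher in Pdgfra-positive than in Pdgfra-low cells under Mock (8 with all libraries), and 7 to 11 with a positive difference of effects. The fits without 1 library have fewer samples. Both FGF8+10 comparisons kept 11 to 13 and 12 members higher, and 17 to 19 and 16 to 17 lower.

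With a replicate block, 118 of the 118 member results kept direction and call. Same-numbered libraries did not deviate together (correlations of -0.022 to 0.033 over 13177 genes). These values show no pairing by number, but cannot tell whether same-numbered libraries came from the same pellets. Over all genes the replicate block gave 11366 and 12451 calls with FGF8+10, in place of 11469 and 12556. For genes with few counts, such as HS3ST2, HPSE and NDST4, depth limits what can be read, since 6 counts in a library equal 0.0883 to 0.134 CPM. NDST2 also had few counts, but 82.9% of its exon bases are shared with another gene, where reads were not counted. The own-libraries fit could not be made for the difference of effects, which needs all 8.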
